A study of Mus musculus with 9 samples.

Results

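The genes described here are 8 members of the circadian clock and its output layer: Nr1d1, Rora, Bhlhe40, Ciart, Cry2, Dbp, Nfil3 and Arntl2. They are the rows of the deposited expression table that carry these symbols, 8 of 675 genes. RNA-seq was run on wild-type mouse brain microvascular endothelial cells (MBMECs), the cells that line brain capillaries, entered in the labels as a cell line. The groups were normoxia, deprivation of oxygen, glucose and fetal bovine serum (OGD, a culture model of ischemia), and the same deprivation in the presence of obacunone at 3 µM (OGD+Oba), at 1, 3 and 6 h. Obacunone is a citrus limonoid. There was 1 library in each of the 9 groups and thus no replicate, and the labels do not say how many cultures stand behind a library. Both deprived groups lacked oxygen, glucose and serum together, and these cannot be told apart. In bulk RNA a change in the RNA of each cell and a change in which cells survive cannot be told apart either.

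The mammalian clock is a feedback loop of transcription. CLOCK and its partner BMAL1, or the related BMAL2 encoded by Arntl2, bind E-boxes and switch on their own repressors, among them the cryptochromes, CIART and BHLHE40. A second loop runs through ROR elements, where RORA activates and NR1D1 (REV-ERBα) represses, and another through D-boxes, where DBP activates and NFIL3 (E4BP4) represses. In endothelium the clock is known to time vascular tone and coagulation, and BHLHE40 is also a known target of the hypoxia-induced factor HIF-1.

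The promoters of Ciart and Nfil3 are shown because they were the only members whose windows held an E-box, D-box or ROR element; capitals mark the matches. Each window runs from 250 bases before to 50 bases after the start used by the RefSeq promoter table (build GRCm38.p6), on the minus strand, written 5′ to 3′. The first lies on chr3:95882179-95882478 and the second on chr13:52980990-52981289.
Ciart: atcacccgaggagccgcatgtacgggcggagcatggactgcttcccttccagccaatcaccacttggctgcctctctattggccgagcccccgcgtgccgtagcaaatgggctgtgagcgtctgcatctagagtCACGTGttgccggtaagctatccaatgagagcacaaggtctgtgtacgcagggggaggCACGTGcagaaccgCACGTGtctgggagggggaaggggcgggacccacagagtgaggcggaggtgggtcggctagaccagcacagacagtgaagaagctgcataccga
Nfil3: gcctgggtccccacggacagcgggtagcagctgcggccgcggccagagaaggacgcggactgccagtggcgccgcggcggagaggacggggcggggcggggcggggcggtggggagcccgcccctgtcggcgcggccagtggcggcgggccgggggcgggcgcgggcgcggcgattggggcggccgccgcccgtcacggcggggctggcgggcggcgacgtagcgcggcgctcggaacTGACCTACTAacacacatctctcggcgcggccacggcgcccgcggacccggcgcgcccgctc

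The Ciart window held 3 E-boxes (CACGTG), beginning at bases -116, -58 and -44 from the start. An E-box was present in 7.17% of 32544 promoter windows of this length. The Nfil3 window held 1 ROR element, read on the opposite strand (TGACCTACTA) from base -12, and such an element was present in 0.694% of windows. The element was searched as A or T, then A, any base, T, A or G, and GGTCA, and all motifs were searched on both strands. The D-box (TTATGTAA or TTATGCAA, in 1.66% of windows) was in none of the 7 member windows; Bhlhe40 had no window in the table. The hypoxia response core (ACGTG or GCGTG, and part of every E-box) was in 5 of 7, against 44.0% of all windows. These matches describe letters in a short window, and clock sites lying outside it were not searched.

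Expression is given as FPKM, fragment counts scaled for transcript length and library size. In the authors' deposited table every one of the 675 genes had a 6 h ratio of OGD to normoxia at least 2-fold from 1, with 350 genes up and 325 down, so a listed gene had to differ at that time. Members at 6 h are therefore described without a test, while the libraries at 1 h and 3 h took no part in that choice. A mean of at least 1 FPKM was found for 580 genes, which were tested together, and all 8 members were among them, Dbp only through its higher libraries. Of the 18 endothelial markers checked, only Flt1, at 0.05 to 0.68 FPKM, and Slc2a1 were listed; the others were not analysed here, so the labelled cell type could not be checked against them. Of 49 markers of other cell types, only the neuronal Tubb3 (3.32 to 10.7 FPKM) and the epithelial Cldn4 (60.9 to 308 FPKM) were listed. Cldn4 moved like several members, at 97.6 FPKM in normoxia and 271 under OGD at 3 h; its part in the results was not tested.

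The authors' log2 ratios carry more than a ratio. Raised to a power of 2, they equal a ratio of whole numbers, or of numbers with 2 decimals, for 99.2% to 99.4% of genes at each time. After matching to FPKM over the 3 times, these numbers are taken as the fragments counted per gene and are called implied counts below; they are the smallest numbers that match, and a common multiple cannot be told apart. They put the depth of the libraries at 0.981 to 1.13 times that of normoxia at 1 h. They also show that the authors' ratios had no scaling for depth. For members, implied counts ran from 6 for Dbp in normoxia at 6 h to 27953 for Bhlhe40 under OGD at 6 h. Intervals from them cover counting error only.

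**Figure D1:**
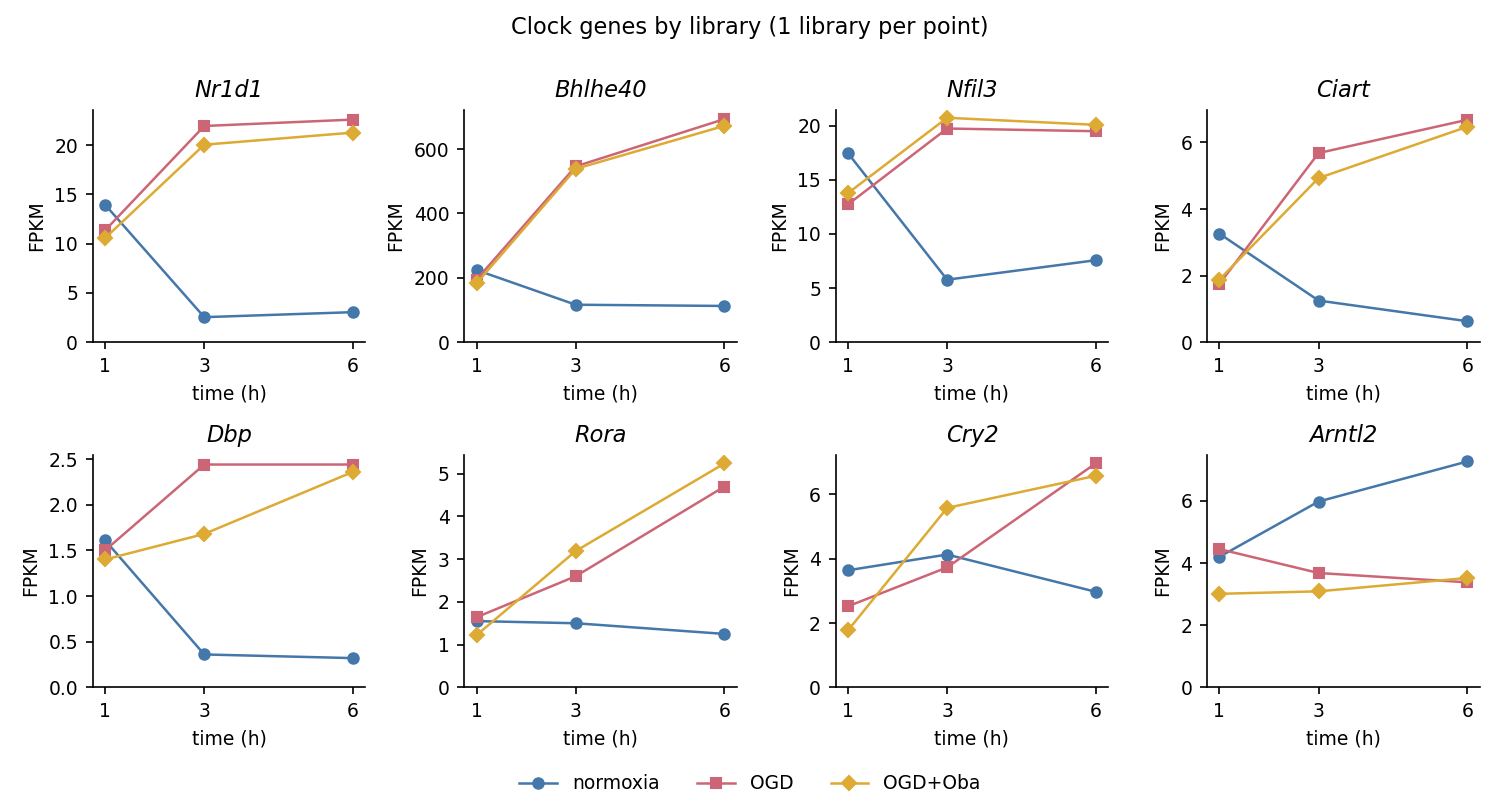
FPKM (vertical axes, linear and starting at 0) of the 8 clock genes against time in hours, with 1 library per point, for normoxia, OGD and OGD+Oba. The normoxia line of Nr1d1 drops from 14.0 to 2.54 FPKM between 1 h and 3 h while its OGD line rises from 11.4 to 22.0, and Arntl2 alone has both deprived lines below normoxia at 3 h and 6 h.

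The comparison of deprived with normoxic cells asks how the clock genes responded to the loss of oxygen, glucose and serum. At 3 h the repressors Nr1d1, Bhlhe40, Nfil3 and Ciart, the D-box activator Dbp and the ROR activator Rora were higher in deprived cells, Arntl2 was lower, and Cry2 did not pass the test. At 1 h none of the 8 passed. Normoxic cells did not stay level. For Nr1d1, Bhlhe40, Nfil3, Ciart and Dbp, a lower normoxia library at 3 h supplied 38.2% to 75.2% of the change in the difference since 1 h. For Arntl2 a higher normoxia library supplied 81.6% of a change that did not pass the test.

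Nr1d1 (NCBI gene 217166, chromosome 11, 98767932 to 98775377, GRCm38.p6) encodes the heme-binding nuclear receptor that represses at ROR elements. In normoxia its levels at 1, 3 and 6 h were 14.0, 2.54 and 3.05 FPKM. Under OGD it stood at 11.4, 22.0 and 22.6 FPKM, and with obacunone at 10.6, 20.1 and 21.3 FPKM. At 3 h and 6 h every deprived library lay above every normoxia library, whereas at 1 h the deprived pair lay within the normoxia range. The fit, limma on log2(FPKM + 1), set the mean of the OGD and OGD+Oba libraries of a time against normoxia, and gave a rise of 2.63 ± 0.15 (log2 ± SE; adjusted p = 6.56e-06) at 3 h. At 1 h the difference was -0.32 ± 0.15 (adjusted p = 0.586). Implied counts of Nr1d1 at 3 h were 89.0 in normoxia and 802 under OGD, a ratio of 8.65 (95% interval 6.94 to 10.9 after scaling for depth). Nr1d1 shares 263 of its 3077 exon bases with Thra on the opposite strand, and most of its implied counts were not whole. Reads of the 2 genes cannot be told apart without strand, and the use of strand in counting is not given in the sources used here.

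Rora (gene 19883, chromosome 9, 68653404 to 69388246), the activator that competes with NR1D1 for the same elements, was low and level in normoxia, at 1.55, 1.5 and 1.25 FPKM. Under OGD it reached 1.64, 2.60 and 4.70 FPKM, and with obacunone 1.22, 3.19 and 5.24 FPKM. Its deprived libraries were above all normoxia libraries at 3 h and 6 h and climbed between those times. At 3 h Rora rose by 0.64 ± 0.23 (limma, adjusted p = 0.0444). The call was lost without the 6 h libraries (adjusted p = 0.1). It was also lost when the pair mean was shifted to OGD by the fitted obacunone effect common to the 3 times (limma, adjusted p = 0.0610). That shift gave 0.62, where the OGD library itself differed from normoxia by 0.53. Its implied counts at 3 h were 227 in normoxia and 405 under OGD, a ratio of 1.71 (1.45 to 2.02).

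Bhlhe40 (gene 20893, chromosome 6, 108660629 to 108666925), also known as Dec1 or Stra13, encodes an E-box repressor of the CLOCK complex. It was the most abundant member by a wide margin, at 224, 116 and 113 FPKM in normoxia. Under OGD it stood at 194, 546 and 693 FPKM, and with obacunone at 183, 539 and 672 FPKM. The deprived libraries were the lowest of their time at 1 h and the highest at 3 h and 6 h. At 3 h Bhlhe40 rose by 2.21 ± 0.07 (limma, adjusted p = 6.76e-07), from 4664 implied counts in normoxia to 22800 under OGD.

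Ciart (gene 229599, chromosome 3, 95878500 to 95882257), also called Chrono, encodes a repressor that binds BMAL1. It stood at 3.26, 1.25 and 0.63 FPKM in normoxia, at 1.75, 5.68 and 6.68 FPKM in OGD, and at 1.88, 4.93 and 6.47 FPKM in OGD+Oba. Normoxia was above the deprived pair at 1 h and below it at 3 h and 6 h. At 3 h Ciart rose by 1.48 ± 0.20 (limma, adjusted p = 0.000689). Behind this stood 20 implied counts in normoxia and 100 under OGD, a ratio of 4.80 whose interval runs from 2.95 to 8.19.

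Cry2 (gene 12953, chromosome 2, 92403646 to 92434085), a cryptochrome that represses CLOCK and BMAL1, stood at 3.64, 4.13 and 2.97 FPKM in normoxia. Its OGD libraries held 2.52, 3.73 and 6.97 FPKM and its OGD+Oba libraries 1.77, 5.58 and 6.58 FPKM. At 3 h the OGD library lay below normoxia and the OGD+Oba library above it, with a fitted difference of 0.12 ± 0.27 (limma, adjusted p = 0.705; 95% interval -0.50 to 0.74). At 6 h both deprived libraries lay above all normoxia libraries. At 1 h both lay below them, the only member for which this was so, against 16.7% of tested genes; 0 members lay above, against 10.7%. The fit gave -0.57 ± 0.27 for Cry2 at 1 h (adjusted p = 0.590).

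Dbp (gene 13170, chromosome 7, 45705100 to 45710203), the D-box activator and a classical output of the clock, was the least expressed member. It stood at 1.61, 0.36 and 0.32 FPKM in normoxia, at 1.5, 2.44 and 2.44 FPKM in OGD, and at 1.40, 1.68 and 2.36 FPKM with obacunone. Its deprived libraries were close to normoxia at 1 h and above all normoxia libraries later. At 3 h Dbp rose by 1.16 ± 0.22 (limma, adjusted p = 0.00365), a size that the added 1 FPKM holds down. With 0.1 FPKM added in its place the rise was 2.21. The mean of its normoxia libraries alone lay below the floor of 1 FPKM, and with no floor Dbp passed too (limma, adjusted p = 0.00263). Its implied counts at 3 h were 7.41 in normoxia and 43.0 under OGD, a ratio of 5.90 with an interval of 2.63 to 15.5 from rounded counts. Dbp shares 539 of its 2993 exon bases with Sphk2 on the opposite strand, and here too most implied counts were not whole.

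Nfil3 (gene 18030, chromosome 13, 52967209 to 52982878), the D-box repressor that opposes DBP, stood at 17.5, 5.77 and 7.57 FPKM in normoxia. The OGD libraries held 12.7, 19.7 and 19.5 FPKM, and those with obacunone 13.8, 20.7 and 20.1 FPKM. The pattern was that of Nr1d1: within the normoxia range at 1 h and above it at 3 h and 6 h. At 3 h Nfil3 rose by 1.65 ± 0.14 (limma, adjusted p = 6.19e-05), with implied counts of 140 in normoxia and 496 under OGD. The activator and the repressor of the D-box were thus both higher in deprived cells.

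Arntl2 (gene 272322, chromosome 6, 146794729 to 146833529), which encodes the CLOCK partner BMAL2, went the other way. It stood at 4.20, 5.98 and 7.27 FPKM in normoxia, at 4.45, 3.68 and 3.38 FPKM in OGD, and at 3.01, 3.09 and 3.52 FPKM with obacunone. The deprived libraries lay below all normoxia libraries at 3 h and 6 h. At 3 h Arntl2 fell by 0.67 ± 0.22 on the log2 scale (limma, adjusted p = 0.0302). The call was lost when the pair mean was shifted to OGD by the fitted obacunone effect common to the 3 times (limma, adjusted p = 0.0640). Implied counts at 3 h were 202 in normoxia and 127 under OGD, a ratio of 0.603 (0.479 to 0.757).

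**Figure D2:**
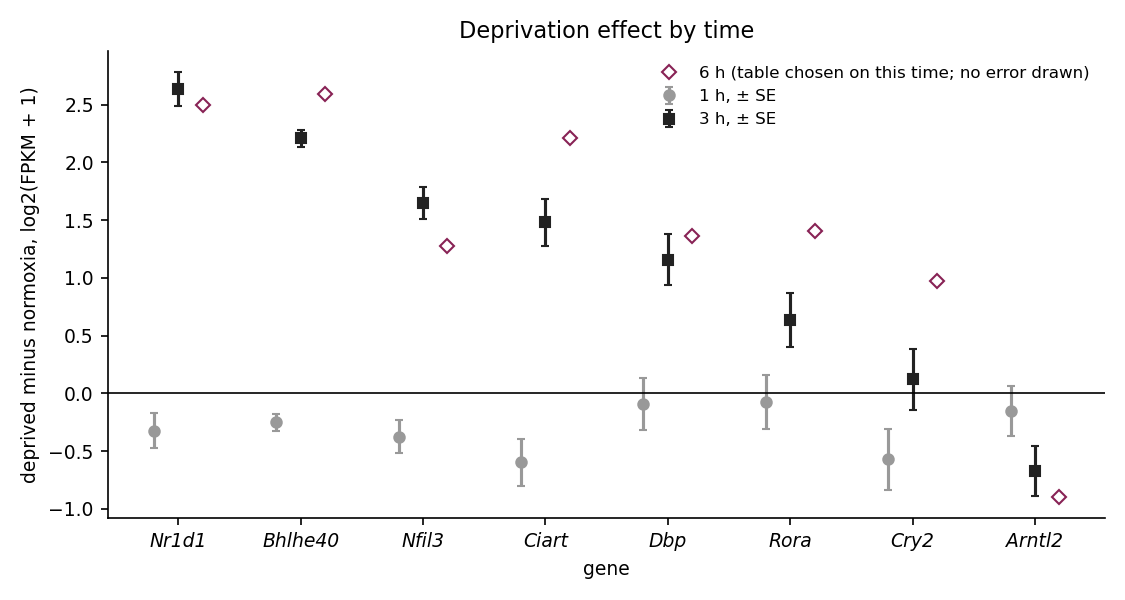
Deprived minus normoxia on the log2(FPKM + 1) scale for each gene, as the mean of the OGD and OGD+Oba libraries of a time against the normoxia library of that time. Circles are 1 h and squares 3 h, with bars of ± SE from limma; open diamonds are 6 h, the time on which the table was chosen, and carry no error. All 8 genes lie at or below 0 at 1 h, from -0.60 for Ciart to -0.07 for Rora, and at 3 h the values run from -0.67 for Arntl2 to 2.63 for Nr1d1.

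In all, 6 of the 8 members rose and 1 fell at 3 h, where 32.8% of the tested genes rose and 28.6% fell. Leaving out Dbp, which reached the floor only through its deprived libraries, 5 of 7 rose. The median difference was 1.32 over the members and 0.05 over all tested genes. The members were proposed with results of these data known, so these counts describe them and are no independent evidence. The tested genes also mix genes listed as higher and as lower at 6 h, 350 and 325 in the whole table. Of the members, 7 were listed as higher. Shares and medians over the genes listed as higher alone were not computed, here or in the comparisons below. Both deprived libraries lay above all 3 normoxia libraries for 6 members at 3 h (37.2% of tested genes) and below them for Arntl2 (38.8%). Those 3 include the normoxia library at 6 h, which took part in the choice of genes. At 1 h the limma test called 0 members, and 0% of tested genes were called higher and 4.14% lower; 24 genes were called in all and 56 had an unadjusted p under 0.05. All 8 member differences at 1 h were below 0, with a median of -0.29, where 64.1% of tested genes lay below 0 and their median was -0.05. The smallest unadjusted p was that of Bhlhe40, at 0.0107. The SE values rest in part on a limma prior of 5.48 degrees of freedom, from the trend with abundance over all tested genes. The rest comes from the scatter within the gene's OGD and OGD+Oba pairs, with 2 residual degrees of freedom. The single normoxia library at a given time was taken to vary as these pairs do, so the p-values measure the spread of these libraries and not of repeated cultures.

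At 6 h, 7 members were higher and 1 lower under OGD in the authors' deposited table, as the choice of genes required; the deprived pair lay beyond all normoxia libraries in the same directions, as did 48.4% of tested genes above and 42.4% below. In the authors' deposited table the log2 ratios ran from 1.28 for Cry2 to 3.52 for Ciart among the higher genes, and Arntl2 was at -1.16. On the log2(FPKM + 1) scale the OGD difference at 6 h was 2.61 for Bhlhe40, 2.54 for Nr1d1, 2.24 for Ciart and 1.26 for Nfil3. It was 1.38 for Dbp, 1.34 for Rora, 1.01 for Cry2 and -0.92 for Arntl2. Against 3 h, the OGD level was flat for Nr1d1, Nfil3 and Dbp, and higher for Bhlhe40, Rora and Cry2. That of Ciart was 1.18-fold higher, on 115 implied counts at 6 h and 100 at 3 h. No counting interval was computed for ratios of 6 h to 3 h.

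The normoxia time course is the reference for genes that may drift in culture. Between 1 h and 3 h the normoxia level of Nr1d1 was 5.50-fold lower, that of Dbp 4.47-fold, that of Nfil3 3.03-fold, that of Ciart 2.61-fold and that of Bhlhe40 1.93-fold. Counting intervals for the ratio of 3 h to 1 h excluded 1 for all 5, the widest being that of Dbp at 0.0979 to 0.644. Rora (1.55 and 1.5 FPKM) and Cry2 (3.64 and 4.13 FPKM) were nearly level, and Arntl2 was 1.42-fold higher. On the log2(FPKM + 1) scale, Nr1d1 and Nfil3 were at least 2-fold lower, 2 of 8 members against 5.34% of tested genes, and 0 were at least 2-fold higher against 2.76%. At 6 h against 1 h, 3 members were at least 2-fold lower (Nr1d1, Nfil3 and Ciart), against 11% of tested genes, and 0 higher, against 3.62%. The median of the members at 3 h was -0.93, where that of all tested genes was -0.08. With 1 library a time, time in culture and the library cannot be told apart.

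The change in the deprivation effect from 1 h to 3 h was tested as a contrast of its own. It passed for 5 members, all upward, against 26.4% of tested genes called upward and 10.7% downward. It was 2.96 ± 0.21 for Nr1d1 (limma, adjusted p = 3.28e-05), 2.46 ± 0.10 for Bhlhe40, 2.08 ± 0.29 for Ciart, 2.02 ± 0.20 for Nfil3 and 1.25 ± 0.31 for Dbp (adjusted p = 0.0181; 0.0127 with no floor). For Dbp the size depends on the scale, at 2.35 with 0.1 FPKM added and 2.23 from implied counts with voom. Without Dbp, 4 of 7 passed. Rora (0.71 ± 0.33, adjusted p = 0.118), Cry2 (0.69 ± 0.38, 0.175) and Arntl2 (-0.52 ± 0.31, 0.205) did not pass in limma, so for Rora and Arntl2 a call at 3 h and none at 1 h is not shown to be a difference between the times.

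The change is made of a movement in normoxia and a movement in deprived cells. In the deprived libraries alone, without normoxia, 6 members rose from 1 h to 3 h, where 29.5% of tested genes rose and 17.8% fell. Bhlhe40 rose by 1.52 ± 0.06, Ciart by 1.16 ± 0.17, Nr1d1 by 0.88 ± 0.12, Cry2 by 0.84 ± 0.22, Rora by 0.68 ± 0.19 and Nfil3 by 0.58 ± 0.12 (limma, adjusted p from 1.57e-06 to 0.02). With voom on implied counts the rise of Rora was 1.02. Dbp, at 0.31 ± 0.18 (adjusted p = 0.189), and Arntl2, at -0.10 ± 0.18 (0.667), did not pass. On this scale the lower normoxia library supplied 75.2% of the change for Dbp, 71.5% for Nfil3 and 70.3% for Nr1d1, and 44.2% for Ciart and 38.2% for Bhlhe40. For Rora it supplied 4.02%, and for Cry2 normoxia moved in the same direction as the deprived cells. Arntl2 differed at 3 h with a normoxia level that was higher than at 1 h and a deprived mean that had hardly moved. That mean joins a change of -0.22 in OGD and of 0.03 in OGD+Oba.

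**Figure D3:**
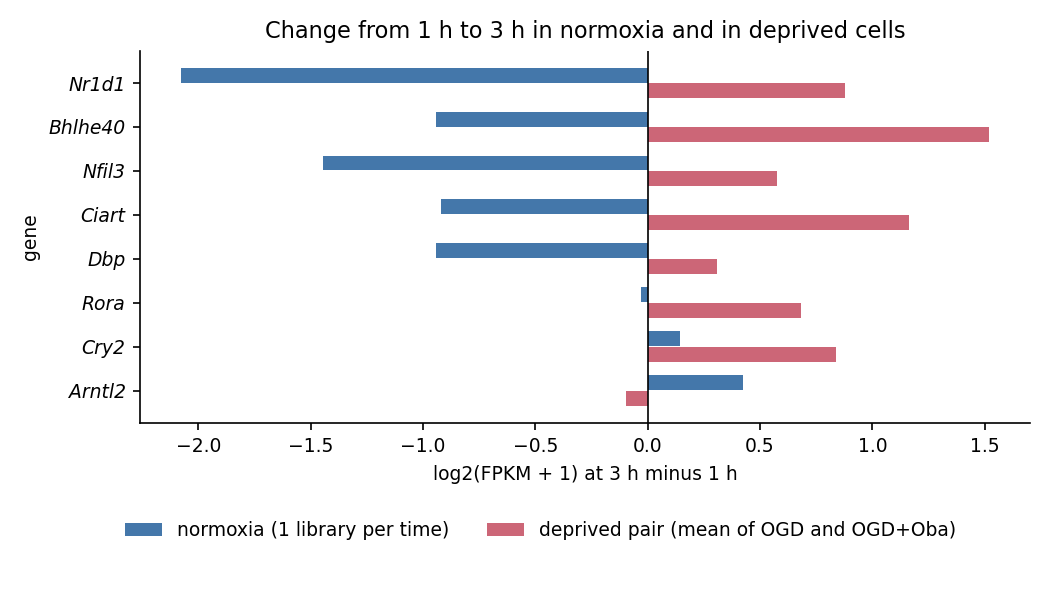
Difference between 3 h and 1 h on the log2(FPKM + 1) scale, as bars from 0, for normoxia and for the mean of the OGD and OGD+Oba libraries. In normoxia the bars run from -2.08 for Nr1d1 to 0.42 for Arntl2, and in deprived cells from -0.10 for Arntl2 to 1.52 for Bhlhe40.

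The shape of these values over the 9 libraries was shared within some pairs. As a description, with deprivation and time shared by all points, Nr1d1 correlated with Nfil3 at r = 0.99 and with Dbp at 0.98, and Bhlhe40 with Ciart at 0.98. Rora was nearer to Bhlhe40 (0.92) than to Nr1d1 (0.71), Cry2 was nearest to Rora (0.88), and Arntl2 was negative against all 7 others, from -0.87 with Nr1d1 to -0.23 with Cry2. Among named genes of the table, the closest to Nr1d1 outside the clock was Irf2bp2 (0.99), a transcriptional co-repressor, which stood at 26.7, 10.2 and 11.4 FPKM in normoxia and 20.8, 36.6 and 40.7 under OGD. The closest to Bhlhe40 were Cited2, Ddit4 and Cdkn1b (r of 1.00, 1.00 and 0.99 after rounding), where Cited2 is a hypoxia-induced inhibitor of HIF-1 and Ddit4 an mTOR inhibitor. Those of Ciart were Cldn4, Cited2 and Maff (0.99 to 0.98), and those of Rora were Ero1l, Tiparp and Itpk1 (0.99). Nfil3 was close to Nr1d1 and Irf2bp2, and Dbp by Nr1d1, Irf2bp2 and Depp1 (0.97 to 0.99). Cry2 was followed by Cd274, Fam71f2 and Bcl2l11 (0.96), and Arntl2 by Tnfrsf21, Syt12 and Ccdc9b (0.95 to 0.96). These are the highest of the correlations with 542 genes, so high values were sought out.

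Other genes of the clock and its surroundings could be described only where the table listed them. Of the core clock and its partners, the 8 members are described; others, Per and Clock genes among them, were not analysed here. Of 5 genes described here that are known as clock outputs or inputs, 4 rose at 3 h and 1 did not pass, in a table where 32.8% of tested genes rose. Sik1, a kinase induced by light input, rose by 1.48 ± 0.15, and Nampt, the rate-limiting enzyme of NAD salvage, by 0.84 ± 0.12. Ppp1r3c rose by 3.96 ± 0.18 and Cdkn1a by 0.27 ± 0.08; median-ratio scaling ended the call of Cdkn1a (adjusted p = 0.116), and limma without trend and a fit without the 6 h libraries ended it too (0.143 and 0.0613). Id2 was at 0.35 ± 0.17 (adjusted p = 0.1) and passed without the 1 h libraries (0.0269). For scale, the 4 HIF-1 targets Vegfa, Ankrd37, Slc2a1 and Egln3 had a median of 2.83 at 3 h and 0.05 at 1 h.

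Whether obacunone altered the clock genes in deprived cells was read from OGD+Oba set against OGD. No member passed the test over the 3 times in limma, and of all 580 tested genes 0.172% were called higher and 0% lower (22 genes had an unadjusted p under 0.05). The fitted differences ran from -0.20 ± 0.15 for Arntl2 to 0.07 ± 0.09 for Nfil3, and every adjusted p was 0.999. The 95% intervals are for 1 effect taken as common to the 3 times. They do not bound an effect at a single time or one that changes sign, nor the spread between cultures. That of Bhlhe40 ran from -0.17 to 0.06, that of Nr1d1 from -0.33 to 0.13, and the widest, that of Cry2, from -0.40 to 0.43. The lowest bound was that of Arntl2, whose interval ran from -0.54 to 0.14.

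At single times 1 pair of libraries gives no test, and the counts give an interval for those libraries alone. Of 24 such intervals, 8 excluded a ratio of 1, 5 below it and 3 above. Cry2 had 92.0 implied counts with obacunone and 120 without at 1 h, a ratio of 0.694 (0.523 to 0.919), and 304 and 205 at 3 h, a ratio of 1.5 (1.25 to 1.80). Rora went the same way, at 0.747 (0.611 to 0.912) at 1 h and 1.23 (1.08 to 1.41) at 3 h, with 1.13 (1.02 to 1.25) at 6 h. Arntl2 was at 0.712 (0.545 to 0.929) at 1 h. For Bhlhe40 the ratios were 0.942 at 1 h and 0.971 at 6 h, small differences that exceed counting error alone because its counts are high. Nr1d1, Nfil3, Ciart and Dbp had no interval that excluded 1. The whole table also moved. Its median OGD+Oba minus OGD difference on the log2(FPKM + 1) scale was -0.08 at 1 h, 0.07 at 3 h and -0.02 at 6 h. The ratios named above went in the direction of that median, except that of Rora at 6 h. The part of this movement in the ratios of Cry2, Rora, Arntl2 and Bhlhe40 was not tested.

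**Figure D4:**
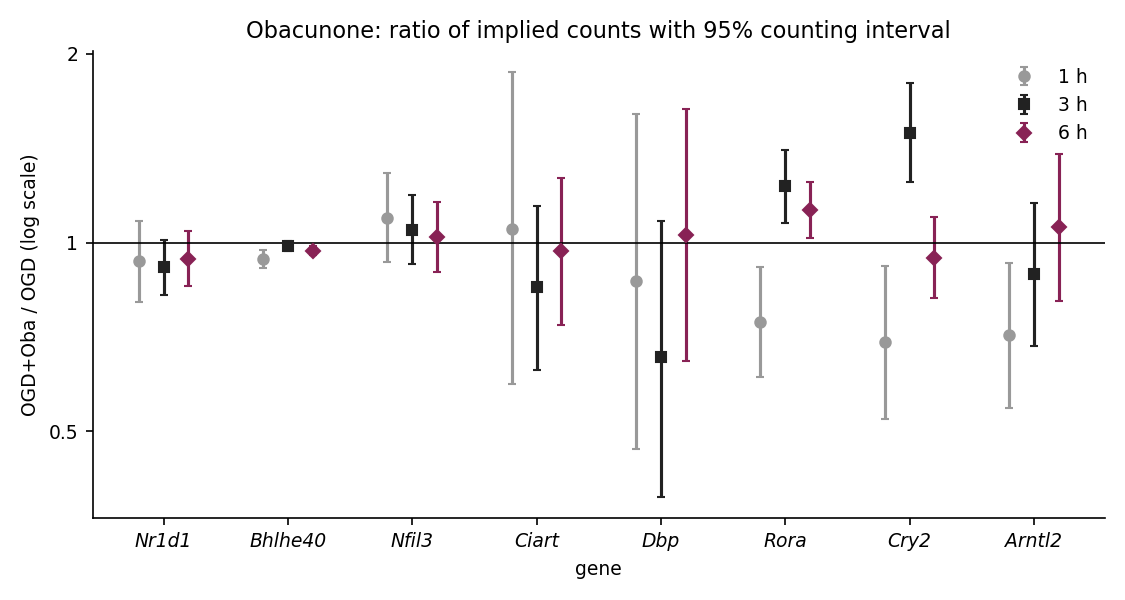
Ratio of OGD+Oba to OGD from implied counts, scaled for depth, on a log axis, with 95% intervals that cover counting error only, at 1 h (circles), 3 h (squares) and 6 h (diamonds). Cry2 and Rora lie below 1 at 1 h and above it at 3 h, while Nr1d1 stays between 0.913 and 0.942.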

How the data were processed

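RNA was sequenced on a DNBSEQ platform per the labels' protocols. HISAT2 2.0.4 and GRCm38 are named in the submitters' processing notes; the counter, annotation and strand setting are not given in the sources used here. The authors deposited FPKM with 2 decimals, 1 column per library, and their own log2 ratio of library pairs, per the file headers. All 9 libraries were grouped by title.

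From these, log2(FPKM + 1) was fitted with limma 3.58.1 in R 4.3.3, with trend, over the 580 genes whose mean reached 1 FPKM. The model had a mean for normoxia and for the deprived pair at each time and 1 obacunone effect (2 residual degrees of freedom, prior of 5.48). P-values were adjusted by Benjamini-Hochberg over all genes tested, with a threshold of 0.05. The fit was run on simulated data with the same independent noise in all libraries. That simulation could not check whether a normoxia library varies like the deprived pairs. Implied counts came from whole-number ratios within a relative tolerance of 2e-14. Their intervals are exact (Clopper-Pearson) at 95%, from SciPy 1.17.1, on counts rounded to whole numbers. Gene positions and promoters are from RefSeq (GRCm38.p6; 671 gene identifiers matched), and exon overlaps from GENCODE M21. Members, gene lists and tests were chosen with earlier results of these data known. By rule, named were all members, listed genes of the clock, output and HIF-1 reference lists, and the 3 genes most correlated with each member, passing over predicted loci; markers are named where listed, and Thra and Sphk2 for their overlap. Some genes that this rule takes in are not reported here.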

Additional observations from a re-analysis of the deposited data

Results flagged for a closer look

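The deprivation effect differed between 1 h and 3 h, by the contrast of the 2 effects in limma, for 5 of the 8 genes. The effect at 3 h minus that at 1 h was 2.96 for Nr1d1, 2.46 for Bhlhe40, 2.08 for Ciart, 2.02 for Nfil3 and 1.25 for Dbp on the log2(FPKM + 1) scale. That of Dbp was 2.35 with 0.1 FPKM added and 2.23 with voom on implied counts. Beside these stand the normoxia differences between the same times, of -2.08, -0.94, -0.92, -1.45 and -0.94 in that order. Each rests on 1 normoxia library per time, and a fault in the 1 h or 3 h normoxia library was not tested. Groups of 1 library allow no search for outlying samples.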

How the results depend on the processing

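Of 558 repeats of results under other settings, 532 kept their direction and side of the threshold, or for counts stayed within 1.5 times. Other floors, limma without trend, the robust option and leaving out 1 time did not alter the estimates of deprived against normoxia. Only p-values could move there, so part of this agreement was fixed in advance. Calls at 3 h of Nr1d1, Bhlhe40, Nfil3, Ciart and Dbp held in every alternative that tested them. A floor of 5 FPKM left 3 members testable, so fewer could be called. All 3 were called at 3 h, where 287 of 375 tested genes were called. The 3 were also called for the change of the effect from 1 h to 3 h (204 of 375 genes). In deprived cells at 3 h against 1 h the 3 were called too (240 of 375 genes). At 1 h the count of all genes called was 10 with median-ratio scaling and 35 to 42 without the 6 h or 3 h libraries, against 24. For obacunone the count over all genes was 1 in the main setting. It was 0 with median-ratio scaling, without trend, with the robust option and with voom on implied counts, 6 in the additive model, and 6 to 13 without 1 time; the cause was not tested. Without 1 time, uncalled obacunone differences spanned 0, from -0.11 to 0.013 for Ciart, -0.060 to 0.17 for Rora and -0.21 to 0.20 for Cry2. With 0.1 FPKM added, 4 members were at least 2-fold apart between normoxia at 3 h and 1 h, against 2. The share of all tested genes was not computed with 0.1 FPKM added, so the 4 cannot be set against it. With voom the change of the effect from 1 h to 3 h passed for Rora, at 1.07. The voom fit was chosen after seeing the data. No paired analysis was possible because the labels give no replicate numbers and each group held 1 library. Depth limits Dbp and Ciart most, at 6 and 10 implied counts in normoxia at 6 h.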
